A study of Mus musculus with 6 samples.

Results

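The 9 genes described here encode the mouse MHC class II molecule, the factors that load it, its main transcriptional switch and the costimulators displayed beside it. They were picked by gene symbol, with earlier results of these data known, and all 9 were found among 43629 gene IDs of the table. They are the class II chain genes H2-Aa, H2-Ab1 and H2-Eb1, the invariant chain gene Cd74, the regulator gene Ciita, the DM chain genes H2-DMa and H2-DMb1, and the costimulator genes Cd86 and Cd80. The sequenced RNA came from marrow of C57BL/6 mice with end-stage leukaemia, frozen, thawed and sorted for c-kit+ cells. The design text describes all mice as Cbfb-MYH11, a fusion gene known from human acute myeloid leukaemia with an inverted chromosome 16. The libraries formed 2 groups of 3: Gata2+/f (replicates 7, 9 and 11) and Gata2+/+ (replicates 3, 5 and 6). Neither the age of the mice, nor what the f allele changes, nor a promoter or recombinase that acts on either allele is given in the sources used here. The comparison sets these leukaemias side by side by Gata2 genotype. Gata2 itself had 498, 273 and 264 CPM (counts scaled to library size with TMM factors) in Gata2+/f, against 886, 887 and 737 CPM in Gata2+/+, with no overlap (log2 fold change −1.28, edgeR adjusted p = 0.109). Libraries held 53789568 to 67854631 expected counts.

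MHC class II molecules are pairs of an alpha and a beta chain that present peptides to CD4 T cells. The chains assemble on the invariant chain, encoded by Cd74, which blocks the peptide groove until proteases in endosomes cut it away. DM, a class II-like pair that stays inside the cell, then exchanges the remaining fragment for other peptides, and DO, a second such pair, restrains DM. Class II genes share a promoter arrangement of X and Y boxes, which are bound by the RFX complex, CREB and NF-Y. The coactivator CIITA joins this assembly without binding DNA and sets the level of transcription. In bone marrow, class II is best known from dendritic cells, B cells and part of the monocytes, and CD80 and CD86 on those cells bind CD28 and CTLA4 of T cells.

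The X and Y box arrangement was looked for in promoter sequences, and 2 of the 5 members with a promoter, H2-Eb1 and H2-DMb1, held both letter patterns. RefSeq promoters of build GRCm38.p6, which run from 250 bases before to 50 after a gene start, were present for 5 of the 9 members: H2-Aa, H2-Eb1, H2-DMa, H2-DMb1 and Cd80. They were also present for the neighbouring class II genes H2-DMb2, H2-Ob, H2-Oa and H2-Eb2. Of the 5 members, 3 held the Y box letters TGATTGG, so the stretch of 57 bases around that match is printed for them, followed by the same stretch of the 4 neighbours. Capitals mark the Y box, the X box (the letters GNAAC, any 2 bases, then ATG) and, in H2-Aa, the cyclic AMP response element letters TGACGTCA.
H2-Eb1 (chr17:34305761-34305817, forward strand): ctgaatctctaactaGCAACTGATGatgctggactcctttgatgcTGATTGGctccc
H2-DMb1 (chr17:34153083-34153139, forward strand): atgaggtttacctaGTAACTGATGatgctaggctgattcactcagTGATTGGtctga
H2-Aa (chr17:34287862-34287918, reverse strand): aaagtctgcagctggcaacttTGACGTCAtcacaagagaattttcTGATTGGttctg
H2-DMb2 (chr17:34145112-34145168, forward strand): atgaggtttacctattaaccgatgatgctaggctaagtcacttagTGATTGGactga
H2-Ob (chr17:34238801-34238857, forward strand): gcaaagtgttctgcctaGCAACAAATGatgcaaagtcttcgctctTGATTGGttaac
H2-Oa (chr17:34092289-34092345, forward strand): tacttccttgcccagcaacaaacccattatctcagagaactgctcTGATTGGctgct
H2-Eb2 (chr17:34325528-34325584, forward strand): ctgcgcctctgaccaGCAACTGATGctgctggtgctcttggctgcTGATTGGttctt

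The Y box began 61, 63 and 50 bases before the RefSeq start of H2-Eb1 (34305867), H2-DMb1 (34153191) and H2-Aa (34287823). The span given below for H2-DMb1 begins upstream of that start, at 34153072. The letters TGATTGG, searched on both strands, occurred in 7.82% of 32851 promoters, the X box letters in 2.51% and TGACGTCA in 1.79%. An X box match followed by TGATTGG within 30 bases on the forward strand occurred in 5 promoters (0.0152%), all on chromosome 17. These were H2-Eb1, H2-DMb1, H2-Eb2, H2-Ob and BC051142, with 20 bases between the matches in H2-Eb1 and H2-Eb2, 21 in H2-DMb1 and 18 in H2-Ob. TGATTGG contains the inverted CCAAT core, and the 3 motifs do not overlap in any stretch shown. The motifs were written down with the class II promoters in view, and the matches describe letters only. The promoters of H2-DMa (RefSeq starts 34122832 and 34125518) and Cd80 (RefSeq start 38458933) had no match to any of them. These starts lie inside the gene spans given below, and promoters at other starts of these genes were not searched.

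The class II chain genes had a higher mean in Gata2+/f leukaemias, but the groups overlapped for each of them. H2-Aa, the alpha chain of the class II molecule I-A (chromosome 17 of GRCm38, 34282744 to 34287823), had 145, 87.2 and 277 CPM in Gata2+/f replicates 7, 9 and 11. Gata2+/+ replicates 3, 5 and 6 had 60.3, 159 and 30.01 CPM. Gata2+/f replicate 11 was the highest library, Gata2+/+ replicate 5 the next, and Gata2+/+ replicate 6 the lowest. The fitted log2 fold change of Gata2+/f over Gata2+/+ was 1.03 (SE 0.64, 95% interval −0.47 to 2.53, n = 3 each), or 2.04-fold. The adjusted p of 0.365, from the quasi-likelihood test of edgeR with Benjamini-Hochberg adjustment over all 15432 genes tested, missed the threshold of 0.05. In whole libraries, fewer cells of a type and less RNA per cell cannot be told apart.

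H2-Ab1, the beta chain that pairs with it (chromosome 17, 34257689 to 34269419), had 95.5, 67.3 and 191 CPM in Gata2+/f, against 44.6, 122 and 21.8 CPM in Gata2+/+. H2-Eb1, the beta chain of the second molecule I-E (chromosome 17, 34305867 to 34316674), had 97.0, 55.2 and 189 CPM in Gata2+/f, against 37.8, 104 and 17.6 CPM in Gata2+/+. Libraries are listed here and below as replicates 7, 9 and 11 of Gata2+/f and replicates 3, 5 and 6 of Gata2+/+. Both genes ordered the 6 libraries exactly as H2-Aa did. Their log2 fold changes were 0.91 (SE 0.64, edgeR adjusted p = 0.419) and 1.09 (SE 0.68, edgeR adjusted p = 0.363). The alpha chain partner of H2-Eb1 is a pseudogene in C57BL/6 mice, and its gene, H2-Ea-ps, had 1, 0 and 1 counts in Gata2+/f and 0 in each Gata2+/+ library.

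Cd74, the chaperone of new class II chains (chromosome 18, 60803848 to 60812652), was the most abundant of the 9 genes per length. It had 206, 173 and 471 CPM in Gata2+/f, against 96.5, 295 and 48.9 CPM in Gata2+/+, again with Gata2+/+ replicate 5 above Gata2+/f replicates 7 and 9. Its log2 fold change was 0.95 (SE 0.67, 95% interval −0.62 to 2.52, edgeR adjusted p = 0.422). Within a library its counts kept close to those of the chains, at 0.610, 0.823 and 0.718 Cd74 counts per count of the 3 chain genes in Gata2+/f and 0.677, 0.765 and 0.704 in Gata2+/+. The median log2 deviation of 220 chromosome 18 genes was −0.35 in Gata2+/f replicate 9 and between −0.058 and 0.14 in the other 5 libraries, and its part in the Cd74 level there was not tested. On chromosomes 16 and 17, which carry the other 8 members, this deviation stayed between −0.055 and 0.043 in all 6 libraries.

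**Figure D1:**
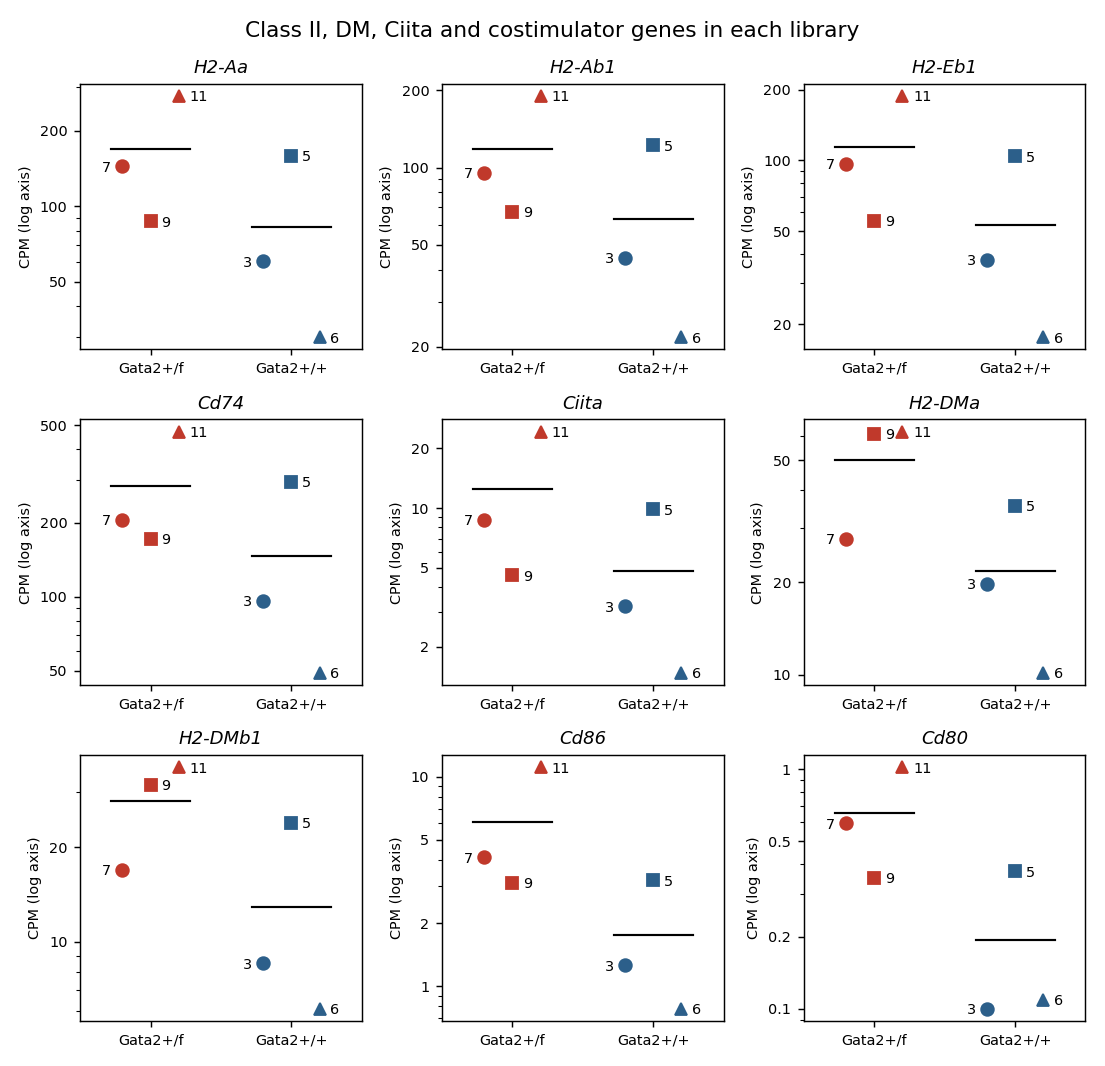
CPM of the 9 genes (vertical log axes) in 3 Gata2+/f and 3 Gata2+/+ libraries; each point is 1 library with its replicate number, and bars are group means. Gata2+/f replicate 11 is the highest library in every panel, and Gata2+/+ replicate 5 lies above at least 1 Gata2+/f library in every panel.

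Ciita, the coactivator that switches class II genes on (chromosome 16, 10480059 to 10528418), followed the same order of libraries with a wider span. It had 8.73, 4.60 and 24.3 CPM in Gata2+/f, against 3.199, 9.86 and 1.48 CPM in Gata2+/+. The highest library exceeded the lowest by 5.29-fold within Gata2+/f and by 6.66-fold within Gata2+/+, which is more than the 2.59-fold of the fitted group difference (log2 fold change 1.37, SE 0.84, edgeR adjusted p = 0.355). The summed counts of H2-Aa, H2-Ab1, H2-Eb1 and Cd74 per Ciita count were 62.2, 83.2 and 46.4 in Gata2+/f and 74.8, 69.0 and 80.1 in Gata2+/+. That ratio was lowest in Gata2+/f replicate 11, where Ciita was highest, and varied 1.79-fold over libraries whose summed class II CPM varied 9.52-fold. Counts cover the whole gene, so the alternative promoters of Ciita, known to differ between dendritic cells, B cells and interferon-treated cells, are not separated.

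The DM chain genes departed from this order in 1 library. H2-DMa (chromosome 17, 34119541 to 34139101) had 27.7, 61.0 and 62.1 CPM in Gata2+/f, against 19.8, 35.5 and 10.1 CPM in Gata2+/+. H2-DMb1, its beta chain partner (chromosome 17, 34153072 to 34160230), had 16.99, 31.6 and 36.0 CPM in Gata2+/f, against 8.56, 24.0 and 6.12 CPM in Gata2+/+. Gata2+/f replicate 9 stood next to replicate 11 for both genes, whereas it stood below replicate 7 for the class II chains. The counts of H2-DMa per H2-Aa count were 0.192, 0.700 and 0.225 in Gata2+/f and 0.328, 0.224 and 0.337 in Gata2+/+. The log2 fold changes were 1.21 for H2-DMa (SE 0.50, 95% interval 0.032 to 2.38, edgeR adjusted p = 0.214) and 1.13 for H2-DMb1 (SE 0.56, edgeR adjusted p = 0.268). H2-DMb1 shares 22.7% of its 50-base stretches with H2-DMb2, so the split of reads between that pair is uncertain, and H2-DMa overlaps CR974462.3 on the same strand and Brd2, among others, on the opposite strand.

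Among the 9 genes the costimulators had the largest fold changes. Cd86 (chromosome 16, 36603869 to 36666081) had 4.13, 3.11 and 11.1 CPM in Gata2+/f, against 1.26, 3.20 and 0.779 CPM in Gata2+/+. Only Gata2+/+ replicate 5, which passed Gata2+/f replicate 9, made the groups overlap. Cd80 (chromosome 16, 38455561 to 38496335) had 42, 21 and 68 counts in Gata2+/f, against 5, 22 and 7 counts in Gata2+/+, or 0.594, 0.351 and 1.02 CPM against 0.09996, 0.374 and 0.109 CPM. The overlap was again between Gata2+/+ replicate 5 and Gata2+/f replicate 9. The log2 fold changes were 1.81 for Cd86 (SE 0.72, 95% interval 0.12 to 3.49, edgeR adjusted p = 0.202) and 1.74 for Cd80 (SE 0.73, 95% interval 0.029 to 3.44, edgeR adjusted p = 0.217).

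Levels can be compared between genes per length of the principal transcript. In Gata2+/f replicate 11 these were 334 CPM per kb for Cd74, 245 for H2-Aa, 157 for H2-Ab1, 113 for H2-Eb1, 37.5 for H2-DMa and 25.6 for H2-DMb1. Cd86 had 4.37 CPM per kb there, Ciita 4.05 and Cd80 0.320. In Gata2+/+ replicate 6, the lowest library, Cd74 had 34.7 CPM per kb, H2-Aa 26.6 and Ciita 0.246. Cd74 was first and Cd80 last in all 6 libraries, and H2-DMa stood above H2-Eb1 in Gata2+/f replicate 9. Ciita and Cd86 changed places between libraries. The place of H2-Aa depends on the length used, since its principal transcript has 1128 bases and all its annotated exons together 3798 bases. With all exons H2-Eb1 was second in every library. Gata2+/f replicate 9 then had 28.4 CPM per kb for H2-Eb1 and 17.7 for H2-DMa, so the place of H2-DMa there depends on the length too.

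Over the 9 genes together, edgeR called 0 at its adjusted threshold, as it did 0 (0%) of all 15432 genes. At an unadjusted p under 0.05, 3 of 9 were higher in Gata2+/f (Cd86, H2-DMa and Cd80), against 1718 of all genes (11.1%). DESeq2's Wald test called 0 of the 9 and 950 of 14438 genes higher (6.58%), and limma voom and the newer form of edgeR's test also called 0 of the 9. All 9 log2 fold changes were positive, as were 51.1% of those of all genes, with a median of 1.13 against 0.019 for all genes. Of the 9 genes, 0 had groups without overlap, against 29.7% of all genes. All 9 were measured in the same libraries and are not separate observations.

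Single libraries decided these counts. Without Gata2+/+ replicate 5 the median log2 fold change was 1.95, all 9 genes were at an unadjusted p under 0.05 against 11.3% of all genes tested there, and all 9 had groups that did not overlap, against 21.5%. Even then 0 of 9 passed edgeR's adjusted threshold, with adjusted p from 0.110 to 0.183. Without Gata2+/f replicate 11 the median was 0.54 and 0 of 9 were at an unadjusted p under 0.05, against 12% of all genes. That count was also 0 without Gata2+/+ replicate 3 (6.89% of all genes) or Gata2+/+ replicate 6 (7.19%). With Gata2+/f replicate 7 left out it was 3 (10.7%), and with Gata2+/f replicate 9 left out it was 2 (10.4%). The groups did not overlap for 2 of 9 genes without Gata2+/f replicate 7 and for 2 of 9 without Gata2+/f replicate 9, near the shares of all genes in that direction (20.4% and 20.1%). Without Gata2+/f replicate 11, Gata2+/+ replicate 3 or Gata2+/+ replicate 6 this was so for 0 of 9, against 22.9%, 17.9% and 18.8% of all genes.

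**Figure D2:**
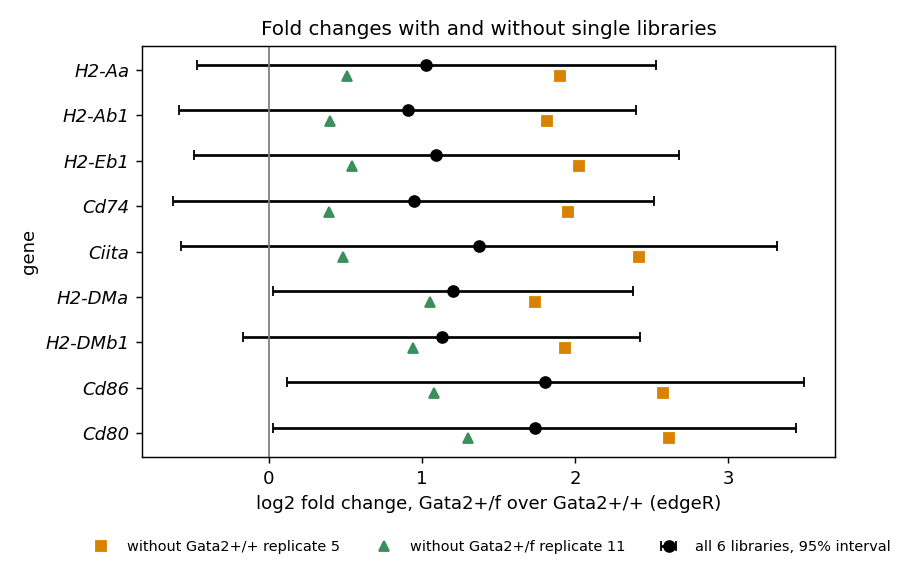
Log2 fold change of Gata2+/f over Gata2+/+ (horizontal axis) for each of the 9 genes, with the 95% interval from all 6 libraries, and the value without Gata2+/+ replicate 5 or without Gata2+/f replicate 11. All values are above 0, and leaving out either library moves H2-Aa to 1.90 or 0.51.

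The members varied together over the libraries. Relative to each gene's mean log2 CPM over the 6 libraries, the class II core of H2-Aa, H2-Ab1, H2-Eb1 and Cd74 stood at 0.45, −0.12 and 1.47 in Gata2+/f, and at −0.75, 0.73 and −1.78 in Gata2+/+. The root mean square difference from that core profile was 0.055 for H2-Aa, 0.050 for H2-Ab1, 0.086 for H2-Eb1 and 0.1003 for Cd74, which are part of it. It was 0.27 for Ciita, 0.36 for Cd86, 0.42 for Cd80, 0.52 for H2-DMb1 and 0.59 for H2-DMa. Outside the 9 genes, the most similar profiles among genes with a mean of at least 1 CPM were those of Dach1 (0.19), Fsd1l (0.24), Plekha8 (0.27), H2-DMb2 (0.28), Tiam1 (0.29) and Aif1 (0.29). H2-DMb2 is the second DM beta chain gene, Tiam1 encodes an activator of the GTPase Rac and Aif1 a calcium-binding protein of macrophages. Dach1, which encodes a transcription cofactor, had 4.40, 3.74 and 8.88 CPM in Gata2+/f, against 2.10, 5.31 and 1.26 CPM in Gata2+/+. This likeness describes 6 libraries only.

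**Figure D3:**
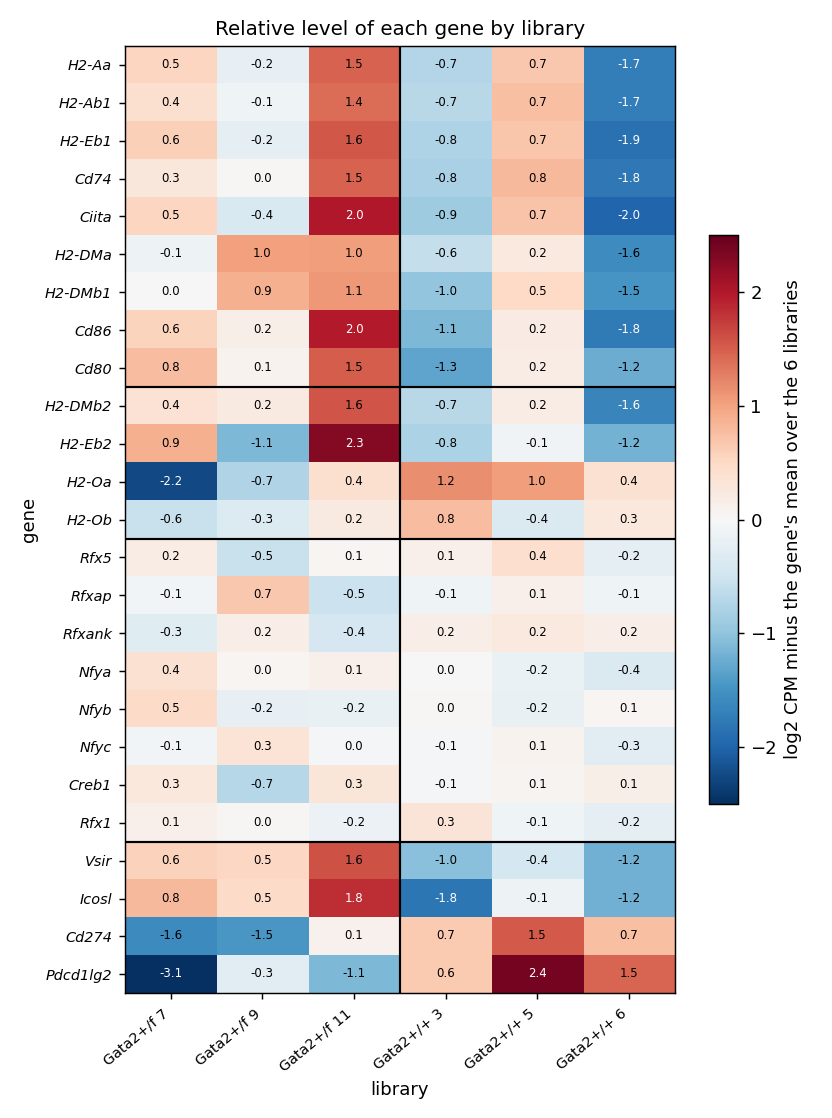
Log2 CPM (with 0.05 added) minus each gene's mean over the 6 libraries, by library (columns) and gene (rows); lines divide the 9 members, other class II region genes, factors of class II promoters and other ligands of T cells. Gata2+/f replicate 11 is highest for all 9 members, while H2-Oa, Cd274 and Pdcd1lg2 are lowest in Gata2+/f replicate 7.

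The other genes of the class II region did not all share that pattern. H2-DMb2 had 4.09, 3.71 and 9.52 CPM in Gata2+/f, against 1.94, 3.61 and 0.981 CPM in Gata2+/+, so that its groups did not overlap (log2 fold change 1.41, SE 0.63, edgeR adjusted p = 0.235). H2-Eb2, a second E beta chain gene, had 0.623, 0.117 and 1.73 CPM in Gata2+/f, against 0.160, 0.289 and 0.109 CPM in Gata2+/+ (log2 fold change 2.14, SE 0.95, edgeR adjusted p = 0.232). The DO genes lay the other way. H2-Oa had 6.66, 19.0 and 42.0 CPM in Gata2+/f, against 71.0, 65.7 and 41.7 CPM in Gata2+/+, where Gata2+/f replicate 11 and Gata2+/+ replicate 6 were nearly equal (log2 fold change −1.40, SE 0.60, edgeR adjusted p = 0.221). H2-Ob had 9.06, 10.4 and 15.6 CPM in Gata2+/f, against 22.7, 10.4 and 16.1 CPM in Gata2+/+ (log2 fold change −0.48, SE 0.39, edgeR adjusted p = 0.479). Of the 4 region genes tested, 0 passed edgeR's threshold, as did 0% of all genes. At an unadjusted edgeR p under 0.05 there were 0, against 11.1% of all genes higher and 11.5% lower. H2-DMb2 was the 1 gene of the 4 whose groups did not overlap, against 13.1% of all genes in that direction. With 4 genes these counts cannot be told from those shares.

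The balance of DO to DM transcripts separated the groups. H2-Oa and H2-Ob together had 0.351, 0.318 and 0.587 counts per count of H2-DMa and H2-DMb1 in Gata2+/f, against 3.30, 1.28 and 3.55 in Gata2+/+. Every Gata2+/f library was thus below 1 and every Gata2+/+ library above it. This ratio was chosen after its values were seen and was given no test. Among single genes, the groups did not overlap for 29.7% of all genes tested. Its counts are not scaled to transcript length, so a value of 1 does not mark equal levels. Per length of the principal transcript, H2-Oa had 6.13, 17.5 and 38.6 CPM per kb in Gata2+/f, against 65.3, 60.4 and 38.3 in Gata2+/+. H2-DMa had 16.7, 36.8 and 37.5 CPM per kb in Gata2+/f, against 11.9, 21.4 and 6.10 in Gata2+/+. Gata2+/f replicate 11 was the only Gata2+/f library in which H2-Oa exceeded H2-DMa on this scale. H2-Oa overlaps BC051537 on the opposite strand, and whether the counting used strand is not given in the sources used here.

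**Figure D4:**
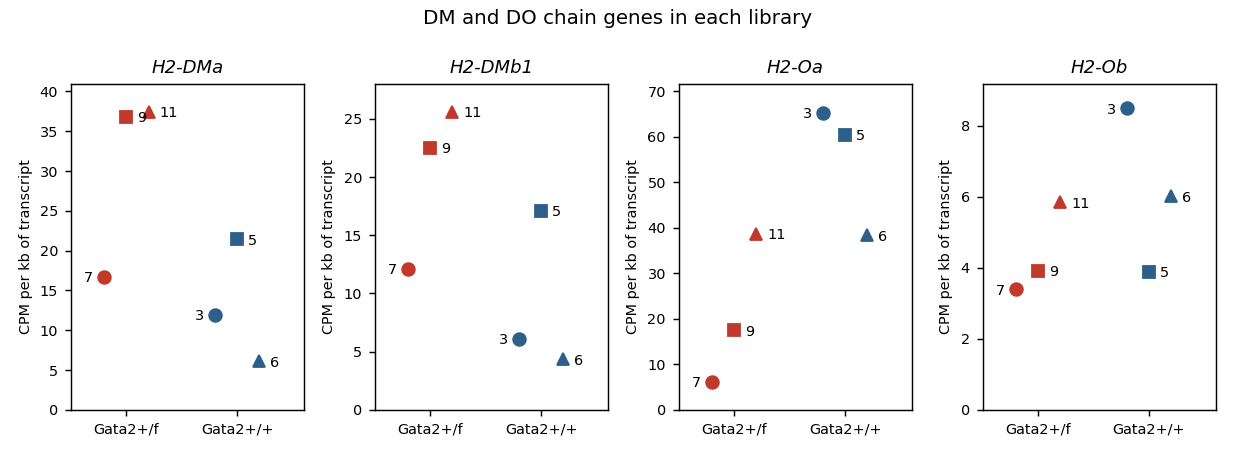
CPM per kb of the principal transcript (vertical axes from 0) for the DM genes H2-DMa and H2-DMb1 and the DO genes H2-Oa and H2-Ob in each Gata2+/f and Gata2+/+ library, with replicate numbers. H2-Oa runs from 6.13 to 38.6 in Gata2+/f and from 38.3 to 65.3 in Gata2+/+.

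The factors that bind class II promoters were present in every library at steadier levels. Of 8 genes tested, 4 had positive and 4 negative log2 fold changes, with a median of 0.045. Past edgeR's threshold there were 0, as for all genes (0%). At an unadjusted edgeR p under 0.05 there were 0, against 11.1% of all genes higher and 11.5% lower. Rfx5, the DNA-binding subunit of the RFX complex, had 45.2, 27.1 and 41.4 CPM in Gata2+/f, against 43.6, 53.2 and 33.4 CPM in Gata2+/+ (log2 fold change −0.20, SE 0.29, edgeR adjusted p = 0.711). Its partners Rfxap and Rfxank had log2 fold changes of 0.13 and −0.35. The NF-Y genes Nfya, Nfyb and Nfyc had 0.37, 0.096 and 0.17, Creb1 had −0.038, and Rfx1, a related RFX factor, −0.0059. Nfya was the 1 gene of the 8 whose groups did not overlap, near the share of all genes in that direction (13.1%, and 29.7% in either direction). It had 130, 103 and 109 CPM in Gata2+/f, against 98.9, 88.7 and 77.5 CPM in Gata2+/+. The intervals of these genes do not exclude a difference: that of Rfx5 ran from −0.87 to 0.47.

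Of 15 tested genes that act on Ciita, or on the interferon gamma pathway which induces it, 5 were higher in Gata2+/f and 2 lower (unadjusted p under 0.05, which 11.1% and 11.5% of all genes met), and 0 passed edgeR's adjusted threshold. DESeq2 called 4 higher and 0 lower, where it called 6.58% and 6.09% of all genes. Irf8, a transcription factor of monocytes and dendritic cells, had 69.8, 109 and 66.5 CPM in Gata2+/f, against 12.4, 32.4 and 13.9 CPM in Gata2+/+ (log2 fold change 2.06, SE 0.43, edgeR adjusted p = 0.0966). The groups did not overlap. Within Gata2+/f, replicate 9 was the highest for Irf8 and the lowest for Ciita. A link of Irf8, or of the other genes of this list, to the Ciita level was not tested. Irf4, a related factor of B cells and some dendritic cells, had 4.17, 3.74 and 15.8 CPM in Gata2+/f, against 1.54, 2.57 and 0.950 CPM in Gata2+/+ (log2 fold change 2.23, edgeR adjusted p = 0.152). The kinase genes Jak1 and Jak2, which act below the interferon gamma receptor, had log2 fold changes of −0.92 and −0.76 (edgeR adjusted p = 0.155 and 0.151). Pax5, a B cell factor of this list, was not tested because it had at most 12 counts in a library.

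Genes that process antigen or turn class II molecules over were split in direction. Of 14 tested, 6 had a higher and 4 a lower level at an unadjusted edgeR p under 0.05, against 11.1% and 11.5% of all genes. None passed edgeR's adjusted threshold. DESeq2 called 5 higher and 3 lower, where it called 6.58% and 6.09% of all genes. Ifi30, the thiol reductase of the endosome, had 92.9, 69.1 and 171 CPM in Gata2+/f, against 24.6, 42.8 and 14.9 CPM in Gata2+/+ (log2 fold change 2.02, SE 0.48, edgeR adjusted p = 0.102). Ctss, cathepsin S, which cuts the invariant chain, is named after its values were seen and had 167, 110 and 357 CPM in Gata2+/f, against 33.1, 109 and 41.3 CPM in Gata2+/+ (log2 fold change 1.79, edgeR adjusted p = 0.155). March8, a ubiquitin ligase that can remove class II from the surface, had 133, 76.3 and 72.9 CPM in Gata2+/f, against 314, 214 and 268 CPM in Gata2+/+ (log2 fold change −1.50, SE 0.31, edgeR adjusted p = 0.0966). The tetraspanin genes Cd82 and Cd63 had log2 fold changes of −1.39 and −3.20 (edgeR adjusted p = 0.0955 and 0.0966). Cd63 is also abundant in mast cell granules, and the mast cell and basophil list summed to 880 to 3547 CPM in Gata2+/f and 8857 to 10876 CPM in Gata2+/+. The part of those cells in the Cd63 value was not tested.

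Other surface ligands of T cells had log2 fold changes of both signs, 7 positive and 7 negative of 14 tested. At an unadjusted edgeR p under 0.05, 3 were higher, against 11.1% of all genes, and 2 lower, against 11.5%, which is near that share. Past edgeR's adjusted threshold there were 0. DESeq2 called 3 higher and 2 lower, where it called 6.58% and 6.09% of all genes. Vsir, the inhibitory ligand VISTA, had 109, 106 and 220 CPM in Gata2+/f, against 35.6, 53.8 and 32.0 CPM in Gata2+/+ (log2 fold change 1.84, SE 0.37, edgeR adjusted p = 0.0966). Icosl, the ligand of ICOS, had 8.72, 6.97 and 17.9 CPM in Gata2+/f, against 1.38, 4.58 and 2.15 CPM in Gata2+/+ (log2 fold change 2.05, edgeR adjusted p = 0.136). The ligands of the inhibitory receptor PD-1 lay lower. Cd274, which encodes PD-L1, had 16.4, 17.9962 and 53.1 CPM in Gata2+/f, against 78.1, 144 and 83.3 CPM in Gata2+/+ (log2 fold change −1.80, SE 0.51, edgeR adjusted p = 0.131). Pdcd1lg2, which encodes PD-L2, had 0.990, 7.50 and 4.10 CPM in Gata2+/f, against 14.1, 47.2 and 24.8 CPM in Gata2+/+ (log2 fold change −2.78, SE 0.76, edgeR adjusted p = 0.127). Counts of these 2 genes per count of Cd86 and Cd80 were 3.69, 7.37 and 4.72 in Gata2+/f, against 67.8, 53.5 and 122 in Gata2+/+, a ratio chosen after its values were seen and given no test.

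Marker lists of cells known to carry class II had higher sums in Gata2+/f as well. The 14 monocyte and macrophage genes summed to 1821, 2841 and 5255 CPM in Gata2+/f, against 558, 1740 and 624 CPM in Gata2+/+. For 3 of the 14 the groups did not overlap in the direction of Gata2+/f, against 13.1% of all genes. At an unadjusted edgeR p under 0.05, 7 were higher, against 11.1% of all genes. The 14 dendritic cell genes summed to 189, 155 and 271 CPM in Gata2+/f, against 67.7, 95.2 and 72.9 CPM in Gata2+/+, with 6 of 14 not overlapping, against 13.1% of all genes in that direction. The 11 B cell genes summed to 17.5, 21.004 and 28.6 CPM in Gata2+/f, against 3.84, 10.6 and 8.69 CPM in Gata2+/+. Cd79b, a chain of the B cell receptor complex, had 13.1, 16.5 and 16.9 CPM of this in Gata2+/f, against 2.02, 8.03 and 3.504 CPM in Gata2+/+. Pax5, a defining B cell gene, was at 0 in Gata2+/+ replicate 5. The 8 T and NK cell genes summed to 20.9 to 107 CPM in Gata2+/f and 10.6 to 42.5 CPM in Gata2+/+, and the 8 neutrophil genes to 3652 to 7246 CPM in Gata2+/f and 130 to 362 CPM in Gata2+/+. Of the T and NK cell genes, Cd3e, Cd3g and Ncr1 were at 0 in at least 1 library. The part of such cells in the class II values was not tested. Batf3 and Pax5 stand in both a marker list and the list of factors acting on Ciita.

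Gata2+/+ replicate 5 had the highest monocyte and dendritic cell sums of its group, and it was also the Gata2+/+ library with the most class II transcripts. Gata2+/f replicate 11 was the highest of all 6 libraries for the class II core and for the monocyte, dendritic and B cell sums. Between the remaining libraries of a group the order was the same for some sums and not for others. A link between these sums and the class II level was not tested. The class II core summed to 239 CPM in Gata2+/+ replicate 3 and 118 CPM in replicate 6, which had the higher monocyte, dendritic and B cell sums. In Gata2+/f it summed to 543 CPM in replicate 7 and 382 CPM in replicate 9. Replicate 9 had the higher monocyte and B cell sums and the lower dendritic cell sum. The counts of the class II core per Csf1r count, the gene of the macrophage growth factor receptor, were 3.26, 2.43 and 3.11 in Gata2+/f, against 6.12, 5.55 and 3.21 in Gata2+/+. Per count of Itgax, the dendritic cell integrin CD11c, they were 7.53, 28.4 and 10.5 in Gata2+/f, against 74.3, 41.0 and 43.4 in Gata2+/+, without overlap. Per count of Cd79b they were 41.5, 23.2 and 66.7 in Gata2+/f, against 118, 84.6 and 33.8 in Gata2+/+. The 3 ratios were chosen after the data had been seen and were given no test. Groups without overlap were found for 29.7% of all single genes tested. Kit, the receptor used for the sort, had 193, 175 and 328 CPM in Gata2+/f, against 826, 1222 and 1466 CPM in Gata2+/+, and its part in these values was not tested.

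**Figure D5:**
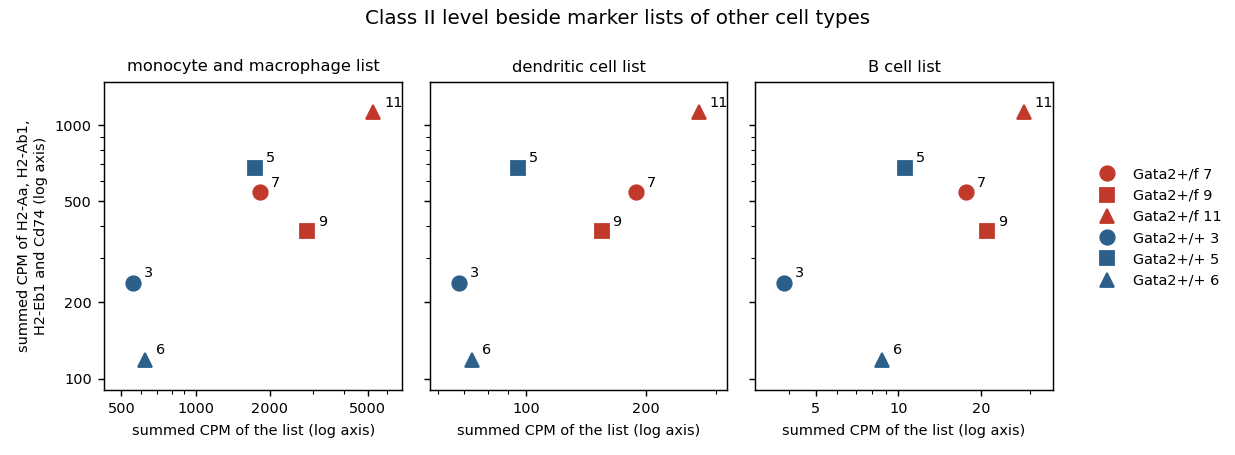
Summed CPM of H2-Aa, H2-Ab1, H2-Eb1 and Cd74 (vertical log axis) against the summed CPM of the monocyte and macrophage, dendritic cell and B cell marker lists (horizontal log axes, 1 panel each), 1 point per library with its replicate number. Within Gata2+/+, replicate 5 is highest on both axes in each of these 3 panels, and Gata2+/f replicate 11 is highest of all 6 libraries on both axes. Gata2+/+ replicate 6 lies to the right of replicate 3 but below it in each panel. Gata2+/f replicate 9 lies so relative to replicate 7 in the monocyte and B cell panels, but not in the dendritic cell panel.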

How the data were processed

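Per the labels' protocols, poly-A selected stranded libraries were made from sorted, thawed marrow. The tools RSEM 1.3.0, STAR 2.5.4a and CASAVA 1.8.2, and the build GRCm38, are listed per the submitters' processing notes; the annotation release and strand setting are not given in the sources used here. The authors deposited 1 expected count (RSEM's estimated count) per gene and library. Of these values 11.7% were not whole, and all were rounded. GENCODE M21 gave symbols for 97.5% of the IDs. filterByExpr (minimum count 10) of edgeR 4.0.16 in R 4.3.3 kept 15432 genes, scaled by TMM. The contrast of Gata2+/f over Gata2+/+ was tested with glmQLFTest (edgeR's quasi-likelihood test, two-sided), without covariates, and SEs and 95% intervals come from that fit. The fit was tested on simulated data. Alternatives used DESeq2 1.42.0, limma 3.58.1, other scalings and filters, and each library left out. DESeq2 left 994 genes without an adjusted p, and they are not counted. A count of 3 equals 0.0424 to 0.0600 CPM, depending on the library.

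All pairs of libraries differed beyond sampling noise (mean chi-square per gene of 238 or more). Nothing in the labels states that each library is a separate animal, so p-values measure the spread between these samples, which may be technical. Named were all 9 members, all other class II region genes and promoter factors, up to 4 genes of each other pathway list by smallest p, and the 6 profiles nearest to the class II core (log2 of CPM plus 0.05). The class I list is described in the closing section. The members and lists were chosen with earlier results of these data known. Promoters are from RefSeq, GRCm38.p6.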

Additional observations from a re-analysis of the deposited data

How the results depend on the processing

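The count of genes called, 0 in edgeR's quasi-likelihood test, was 1829 in DESeq2, 9 in limma voom, 32 in the newer form of edgeR's test, 19 with no filter beyond 1 count, 444 at adjusted p under 0.1, and 0 to 66 with 1 library left out. The cause was not tested. The count of the 9 members called was 0 under all of these, except that 1 CPM in 3 libraries left Cd80 untested. DESeq2 reached an adjusted p of 0.0635 for Cd86, its lowest for a member. The count of members whose groups do not overlap, 0 of 9, was 1 with upper quartile factors (16% of all genes in that direction) and 0 to 9 with 1 library left out (17.9% to 22.9%). The median log2 fold change of the members, 1.13, was 0.54 to 1.95 with 1 library left out. All 134 member values listed under the alternatives were positive. Some of them, such as those at adjusted p under 0.1, repeat the fold change of the main fit and are not recomputed. Upper quartile factors moved the median of all genes to 0.11. At 5 to 68 counts, counting error limits Cd80. No paired analysis was possible because the groups share no replicate number.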

Other observations

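Class I presentation genes, which display peptides to CD8 T cells, had log2 fold changes of both signs, 11 positive and 5 negative of 16 tested. At an unadjusted p under 0.05, 3 were higher and 1 lower, where 11.1% and 11.5% of all genes were, so that these counts are near the background. The list had a median log2 fold change of 0.19, and 0 passed edgeR's adjusted threshold. Nlrc5, the class I counterpart of Ciita, had 11.4, 14.4 and 27.1 CPM in Gata2+/f, against 3.94, 9.17 and 3.21 CPM in Gata2+/+ (log2 fold change 1.70, SE 0.54, edgeR adjusted p = 0.149). The class I heavy chain gene H2-K1 had 321, 551 and 494 CPM in Gata2+/f, against 264, 327 and 240 CPM in Gata2+/+ (log2 fold change 0.72, edgeR adjusted p = 0.194). Calr, the chaperone calreticulin, had a log2 fold change of 0.57 (edgeR adjusted p = 0.215). Tap2, a subunit of the peptide transporter, had 128, 177 and 169 CPM in Gata2+/f, against 349, 217 and 260 CPM in Gata2+/+ (log2 fold change −0.80, SE 0.26, edgeR adjusted p = 0.154).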
